A study of Mus musculus with 16 samples.

Results

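The joining (J) segments of the mouse T cell receptor alpha (TRA) locus lie in a row between the variable (TRAV) genes and the constant gene TRAC, and their numbers run from high beside the TRAV genes to low beside TRAC. The segments described here are TRAJ2 to TRAJ58 without TRAJ18 and TRAJ30, as labelled on the alpha chains of cells that had exactly 1 beta chain (TRB) and 1 or 2 alpha chains. Of the 55 numbers in that range, 41 were used, out of 43 TRAJ labels and 166 V and J labels in all 8 libraries. They were carried by 37656 of the 40428 alpha chains of the 38108 cells kept, and the files listed 74368 cells.

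The cells were CD4+ T cells of mouse spleen sorted as CD44high, a marker of antigen experience, and their receptors were read by droplet-based single-cell V(D)J sequencing. All mice had received an NK1.1-depleting antibody (50 µg on days -2 and 5) and Vk12653 cells, a Vk*Myc multiple myeloma line, on day 0. They were then given either anti-4-1BB, an agonist of the costimulatory receptor CD137 (4-1BB), or control IgG (20 µg on days 10, 13 and 16), and spleens were taken on day 18. Wild-type (WT) mice were Eomes-IRES-GFP, which carry a reporter in the gene of the T-box transcription factor Eomes. Knockout (KO) mice were Eomesfl/fl-CD4Cre in experiment 1 and Eomesfl/fl-ERT2CD4Cre in experiment 2, where both genotypes also received tamoxifen. The kind of knockout and the experiment therefore cannot be told apart. The CD4Cre of experiment 1 is active from the CD4+CD8+ thymocyte stage on, so it acts in CD8+ T cells too. Each of the 4 groups, WT and KO with either antibody, had 2 libraries, 1 per experiment, and nothing in the labels says how many mice a library holds. The p-values therefore measure only the spread between these libraries. The files hold receptor contigs and no expression values, so CD4 and CD44 could not be checked, and the 8 gene expression libraries were not analysed here.

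Cells kept per library ranged from 2656 to 8871, clonotypes from 2307 to 7585, and UMIs, the unique molecular identifiers that count captured transcripts, from 80551 to 445027. The library from WT mice given anti-4-1BB in experiment 1 was the largest in all 3. A clonotype is the set of cells of a library with the same V gene, J segment and CDR3 nucleotides in the beta chain and in the main alpha chain, the one with more UMIs. In all there were 30489 clonotypes, and 28565 had one of these TRAJ segments in the main alpha chain. The third complementarity-determining region (CDR3) is the loop made where V and J join. Of 37225 cell barcodes 866 occurred in at least 2 libraries, 0 of them with the same receptor, and 33 of 30455 distinct clonotypes were found in at least 2 libraries.

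TRA genes rearrange in CD4+CD8+ thymocytes. The first joins take TRAV genes at the J-side end of the TRAV array and TRAJ segments at the TRAV-side end, and later rounds delete that join and reach outward to more distant TRAV genes and to TRAJ segments closer to TRAC, until a receptor is positively selected or the cell dies. Both alleles rearrange, so a T cell can hold a pair of productive alpha chains. Part of the TRAV array is duplicated in the mouse, and the copies carry D or N in their names (TRAV6D-6, TRAV7N-4).

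The sequences below are the TRAJ-encoded ends of the CDR3, in the direction of transcription, for the segments at both ends of the row, the most used ones and those with the longest and shortest CDR3. They are consensus sequences of the CDR3 nucleotides in the deposited files, aligned at their 3′ ends. Each was traced back from the 3′ end, up to the length that RefSeq gives the segment less the framework part after the CDR3, by the commonest base among the clonotypes still matching. Capitals mark the bases, counted from the CDR3 3′ end, that were each the same in at least 90% of the segment's clonotypes. The lower-case bases are those that joining often removed. Coordinates are those of the whole segment in RefSeq, build GRCm38.p6, on the forward strand.
TRAJ58 (chr14:54157280-54157342): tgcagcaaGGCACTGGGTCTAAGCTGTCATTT
TRAJ53 (chr14:54162644-54162709): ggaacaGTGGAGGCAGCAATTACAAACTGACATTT
TRAJ52 (chr14:54165316-54165381): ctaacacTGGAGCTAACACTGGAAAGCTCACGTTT
TRAJ43 (chr14:54174742-54174798): gcaatAACAACAATGCCCCACGATTT
TRAJ37 (chr14:54181518-54181577): taaCAGGCAATACCGGAAAACTCATCTTT
TRAJ33 (chr14:54185358-54185414): tggatAGCAACTATCAGTTGATCTGG
TRAJ31 (chr14:54187895-54187951): ggaataGCAATAACAGAATCTTCTTT
TRAJ23 (chr14:54196081-54196140): tgaatTATAACCAGGGGAAGCTTATCTTT
TRAJ2 (chr14:54217836-54217901): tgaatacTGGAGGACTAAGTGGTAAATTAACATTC

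The 41 segments lie within 60.6 kb, from TRAJ58 to TRAJ2. The consensus ended in the phenylalanine codon TTT in 30 segments and in TTC in 7. It ended in the tryptophan codon TGG in TRAJ33 and TRAJ38, and in the leucine codon TTG in TRAJ7 and TRAJ44. The 14 numbers with 0 contigs were TRAJ3, TRAJ8, TRAJ10, TRAJ14, TRAJ19, TRAJ20, TRAJ25, TRAJ29, TRAJ36, TRAJ41, TRAJ46, TRAJ51, TRAJ54 and TRAJ55. RefSeq annotates 6 of them as pseudogenes (TRAJ8, TRAJ14, TRAJ36, TRAJ51, TRAJ54 and TRAJ55) and 7 as J segments, and TRAJ10 had no entry in the table used. All contigs in the files were productive, so joins out of frame were not analysed here. A count of 0 allows a share of up to 0.0396% of clonotypes in the largest library and 0.130% in the smallest, at 3 counts of the total.

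Use was uneven along the row and had a similar, though not identical, shape in every library. TRAJ31, in the middle of the row, was the most used segment, with 6.74% ± 0.44 of clonotypes (SD, n = 8 libraries). Its share was 6.74% in WT IgG, 6.25% in WT anti-4-1BB, 7.46% in KO IgG and 6.23% in KO anti-4-1BB in experiment 1. The shares of TRAJ31 in experiment 2 were 7.03%, 6.93%, 6.31% and 6.98% in the same order. No other segment reached the lowest of these 8 values in any library. TRAJ37 (4.90% ± 0.51), TRAJ23 (4.89% ± 0.41), TRAJ22 (4.66% ± 0.33), TRAJ27 (4.66% ± 0.51) and TRAJ40 (3.69% ± 0.55) came next. The libraries' ranges of TRAJ37, TRAJ23, TRAJ22 and TRAJ27 overlapped, so their order is not resolved. The 5 most used segments together made up 25.9% of clonotypes, the 10 most used 42.6% and all 41 93.6%.

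The least used segments were TRAJ5 (0.446% ± 0.209), TRAJ35 (0.481% ± 0.106), TRAJ2 (0.490% ± 0.146), TRAJ28 (0.634% ± 0.127), TRAJ38 (0.761% ± 0.120) and TRAJ47 (0.789%). Some had a much used neighbour: TRAJ27 was used 1421 times beside 198 for TRAJ28, and TRAJ37 1499 times beside 221 for TRAJ38. Others did not lie apart so clearly. TRAJ47 (234 clonotypes) lay beside TRAJ45 with 276, and TRAJ2 and TRAJ5 lay beside TRAJ4 with 339. TRAJ5 ranged from 0.209% to 0.791%, the widest range for its level among these 6. Every one of the 41 segments was found in all 8 libraries. The exact (Clopper-Pearson) 95% interval of TRAJ31 reached at most 1.09 percentage points to each side, and that of TRAJ5 at most 0.363. These intervals and limits, taken on counts of clonotypes, cover counting error only and not the spread between mice or libraries. Across the 41 segments the shares of any pair of libraries correlated with a Pearson r of 0.912 to 0.978 (28 pairs, a description, since all libraries read the same segments).

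**Figure D1:**
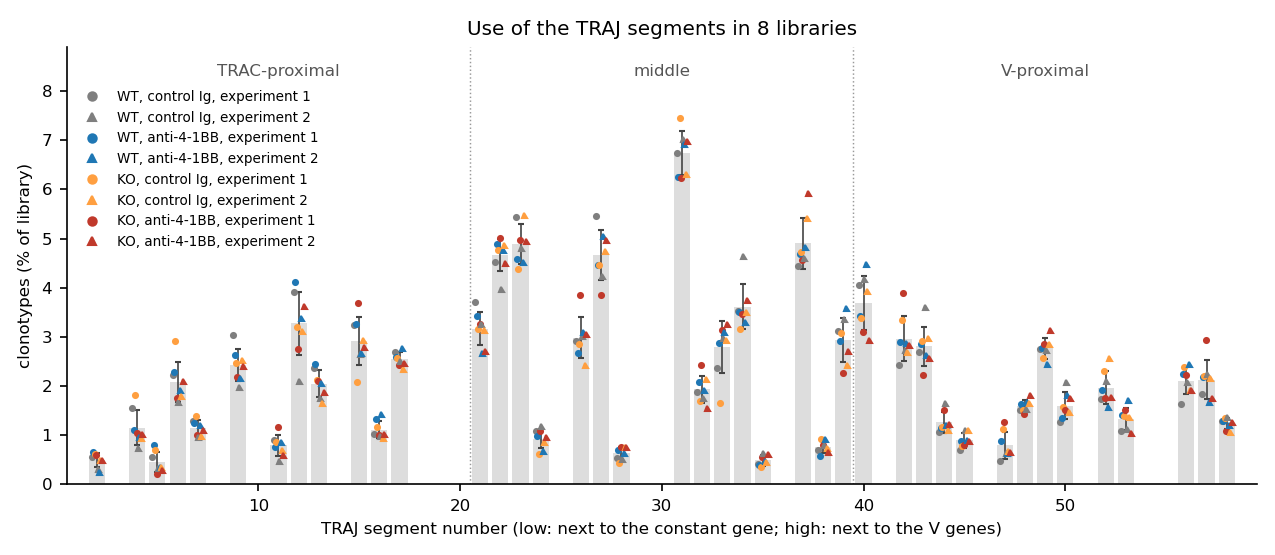
Share of clonotypes (percent of a library, y axis) for each of the 41 segments by number (x axis, low beside TRAC, high beside the TRAV genes); bars and whiskers are the mean and SD of 8 libraries, points the libraries, and dotted lines the limits of 3 equal spans of number. TRAJ31 stands highest at 6.74%, and the points of 1 segment lie close together beside the differences between segments.

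Split into 3 equal spans of number, the middle segments (TRAJ21 to TRAJ39) made up 49.2% ± 1.52 of the clonotypes that used these segments (SD, n = 8), from 46.7% to 51.1%. The V-proximal segments (TRAJ40 to TRAJ58) made up 29.0% ± 1.73, from 25.9% to 31.6%. The TRAC-proximal segments (TRAJ2 to TRAJ20) made up 21.8% ± 2.29, from 17.8% to 24.7%. The ranges of the 3 spans did not overlap, and the spans held 15, 14 and 12 used segments. In the WT IgG libraries the TRAC-proximal share was the highest of all 8 in experiment 1, at 24.7%, and the lowest of all 8 in experiment 2, at 17.8%.

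The TRAV gene of an alpha chain and the position of its TRAJ segment went together. TRAV starts spanned 1448 kb and were split into 3 equal spans of 483 kb, with the near span beside the TRAJ row. Alpha chains with a TRAV gene of the near span (36 genes, 13042 clonotypes) had a mean TRAJ number of 36.8 ± 0.38 (SD over 8 libraries). The mean was 24.7 ± 0.76 in the middle span (33 genes, 10471 clonotypes) and 27.6 ± 0.90 in the far span (19 genes, 5052 clonotypes). Near minus far came to 10.5 in WT IgG, 9.77 in WT anti-4-1BB, 9.03 in KO IgG and 9.28 in KO anti-4-1BB in experiment 1. In experiment 2 near minus far came to 8.42, 9.27, 9.41 and 8.27 in the same order. The difference was 9.24 ± 0.70 and positive in 8 of 8 libraries (exact two-sided sign-flip permutation test, n = 8, p = 0.00781, the smallest its 256 patterns can give; adjusted p = 0.0130 over 5 tests). With the TRAV array split into 2 equal spans instead, the difference was 5.08, also positive in 8 of 8 libraries. V-proximal segments made up 44.4% ± 1.65 of near-span clonotypes against 18.5% ± 2.15 of far-span ones. TRAC-proximal segments made up 9.47% ± 1.18 of near-span clonotypes against 26.0% ± 3.26.

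The mean TRAJ number did not fall steadily with distance. Among 64 TRAV genes with at least 100 clonotypes, it correlated with the TRAV start at Pearson r = 0.723 and Spearman rho = 0.763. Within the near span (30 genes) r was 0.979, and within the far span (11 genes) it was 0.781. Within the middle span (23 genes) r was -0.02. These are correlations across genes, which are not independent replicates and share libraries, so no p is given. In the near span the mean was higher the closer a gene lay to the TRAJ row. TRAV4-2, whose J-side end lies 738 kb from TRAJ58, averaged 28.2, TRAV13-1 (612 kb) 34.3 and TRAV12-3 (535 kb) 36.5. TRAV4-4-DV10 (473 kb) averaged 40.9, TRAV6-7-DV9 (447 kb) 42.6 and TRAV13-4-DV7 (399 kb) 45.5. TRAV17 (350 kb) averaged 47.5, TRAV19 (311 kb) 49.7 and TRAV21-DV12 (281 kb) 50.1, the highest of the 64. TRAV1, at the far end of the array (1728 kb), averaged 23.2.

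One far-span label lay apart from its neighbours. TRAV6D-6, 1335 kb from TRAJ58, averaged 32.4 over 1162 clonotypes. RefSeq lists a TRAV6-6 gene in the near span, and that label was carried by 0 contigs. In all, 25 annotated TRAV genes had a label that no contig carried, 15 of them D copies. Reads of near-identical copies cannot be told apart from the labels, so the position of such a label is uncertain. TRAV7D-2, the far-span label with most clonotypes (1846), averaged 25.9. RefSeq lists a TRAV7-2 gene at the J-side end of the middle span, a label also carried by 0 contigs. TRAV6D-6 and TRAV7D-2 held most of the 5052 far-span clonotypes, so the far-span mean of 27.6 rests largely on them. Near minus far without D or N copies was 12.9.

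**Figure D2:**
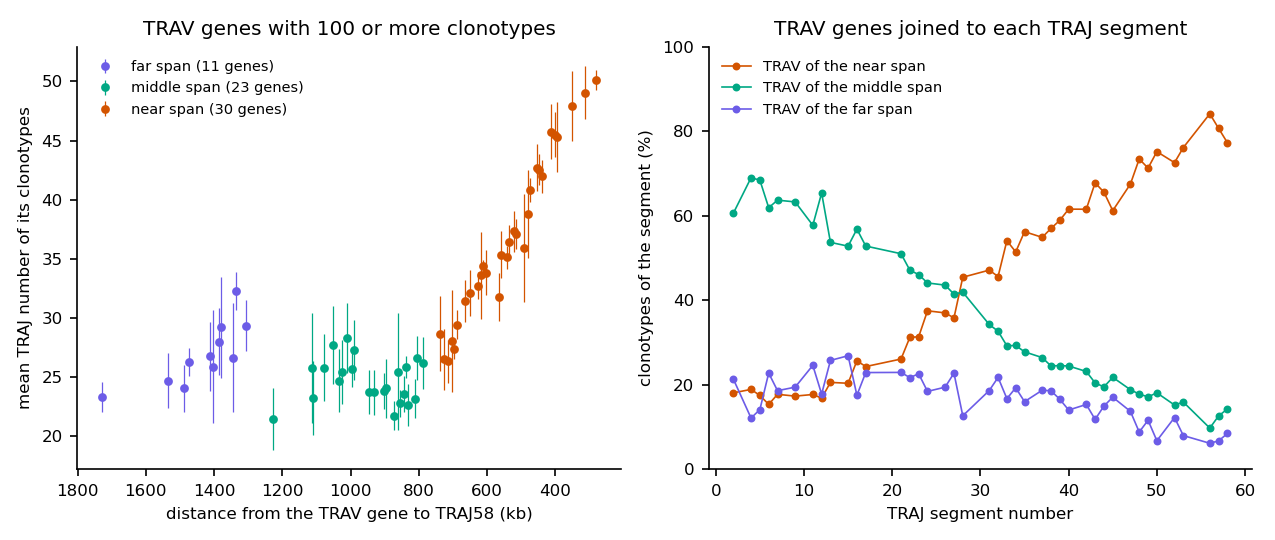
Left, mean TRAJ number (y axis, mean and SD of the library means) of each TRAV gene with at least 100 clonotypes, against its distance from TRAJ58 in kb (x axis, falling to the right), coloured by span. The means of the near span climb to 50.1 in TRAV21-DV12, and those of the middle span show no slope. Right, percent of each segment's clonotypes (y axis) with a TRAV gene of each span, by TRAJ number (x axis); the near-span line rises from 15.3% in TRAJ6 to 84.2% in TRAJ56.

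Among the 14 TRAV families with at least 200 clonotypes, of 20 families in all, the highest means belonged to TRAV21, TRAV19 and TRAV5. TRAV21 averaged 50.1, with library means from 48.8 to 51.1, and 88.0% of its 648 clonotypes used V-proximal segments and 1.08% TRAC-proximal ones. TRAV19 averaged 49.7, with 86.6% V-proximal, and TRAV5 averaged 32.2. The lowest means among these 14 belonged to TRAV3 (23.9), TRAV8 (27.4) and TRAV7 (28.5). TRAV21 and TRAV19 consist of 1 gene each, at the J-side end of the array, whereas most other families are spread over it.

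Families with copies inside and outside the near span allowed the same comparison within a family. In all 12 families with at least 100 clonotypes on each side, the near-span copies had the higher mean TRAJ number in 8 of 8 libraries. The difference ran from 3.81 in TRAV8 to 19.7 in TRAV16, with a median of 11.6 over the 12 families. Near-span TRAV16 averaged 45.1 and the other copies 26.1. TRAV4 differed by 14.9 ± 1.09 (SD, n = 8; 38.0 against 22.9) and TRAV13 by 11.9 ± 1.16 (37.1 against 25.2). The TRAV7 copies, the family with most clonotypes, averaged 32.5 near and 25.7 elsewhere. These differences come from the same clonotypes as the tested difference between spans, so they carry no test of their own.

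Seen from the TRAJ side, the share of clonotypes with a near-span TRAV gene was lowest in TRAJ6, at 15.3%, and was 18.1% in TRAJ2. It was 47.1% in TRAJ31, 61.6% in TRAJ40, 77.3% in TRAJ58 and 84.2% in TRAJ56, the highest. Across the 41 segments this share followed the number with r = 0.985, again a description. TRAV17, TRAV18, TRAV19 and TRAV21 together supplied 36.4% of TRAJ58 clonotypes, 30.6% of TRAJ57, 28.2% of TRAJ56 and 15.1% of TRAJ53.

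A second alpha chain was found in 2320 of the cells kept, 3.83% to 8.98% per library. The library with most UMIs, from WT mice given anti-4-1BB in experiment 1, had the highest share. These cells gave 2100 distinct receptors, of which 1877 had the segments studied in both chains, 126 to 674 per library. The chain with fewer UMIs was not placed detectably further along the row than the main one. Second minus main was 0.25 ± 0.97 in mean TRAJ number (SD, n = 8), from -1.32 to 1.95 and positive in 5 of 8 libraries (exact sign-flip permutation test, p = 0.461, adjusted p = 0.576). It was 0.658 over chains with at least 3 UMIs (exact p = 0.109), 0.645 where the main chain had at least 2 times the UMIs of the second (exact p = 0.141), and 0.0131 without KO anti-4-1BB replicate 2. Both chains showed the link with TRAV position. Near minus far was 8.80 ± 1.43 for the main chain and 7.70 ± 2.33 for the second, positive in 8 of 8 libraries for each.

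The chains of 1 receptor lay closer together on the row than chains of different receptors. The mean distance between the segments of a receptor was 10.8 ± 1.02 numbers, and the mean over all pairs of a main and a second chain from different receptors of the same library was 15.6 ± 0.44. In experiment 1 the distance of the same receptor was 10.4 in WT IgG, 10.1 in WT anti-4-1BB, 9.56 in KO IgG and 9.82 in KO anti-4-1BB. In experiment 2 it was 11.6, 12.2, 10.8 and 12.03 in that order. Same minus different receptors was -4.81 ± 0.97, negative in 8 of 8 libraries (exact two-sided sign-flip permutation test, n = 8, p = 0.00781, the smallest possible; adjusted p = 0.0130). Within experiment 1 it was -5.68 ± 0.38 (n = 4) and within experiment 2 -3.94 ± 0.16 (n = 4). The ranges of the experiments did not overlap, at -6.04 to -5.14 and -4.12 to -3.74, and their difference of -1.74 was not tested. It was -1.04 where the main chain had at least 2 times the UMIs of the second. Pearson r between the numbers of both chains was 0.499 to 0.533 in the libraries of experiment 1 and 0.297 to 0.384 in those of experiment 2.

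Both chains fell in the same span of the row in 56.2% ± 4.39 of receptors, against 38.7% ± 1.24 if the spans of the chains were independent. They lay within 5 numbers of each other in 36.0% ± 5.39 and used the same segment in 6.59% ± 1.80 of receptors. Where the main chain used a V-proximal segment, the second did so in 57.4% ± 9.37 of receptors and used a TRAC-proximal one in 9.46% ± 5.02. Where the main chain used a TRAC-proximal segment, the second was TRAC-proximal in 45.0% ± 9.44, middle in 45.5% ± 6.26 and V-proximal in 9.43% ± 5.57. In 7 receptors both chains had identical CDR3 nucleotides, all with TRAJ12. Without them the distance kept its direction in every library.

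**Figure D3:**
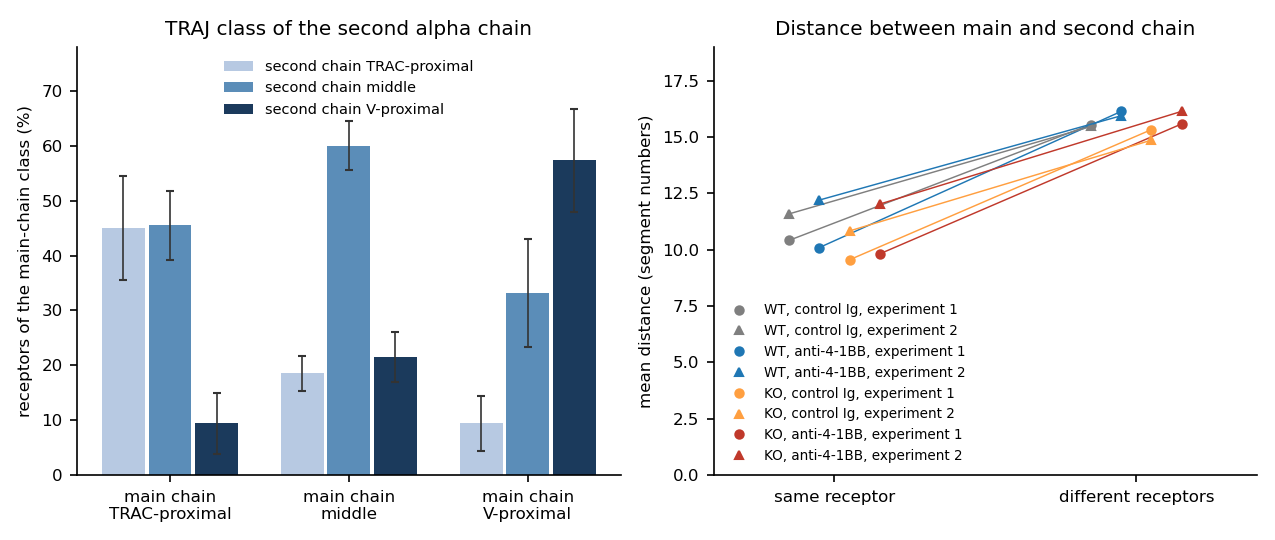
Left, percent of receptors (y axis, mean and SD of 8 libraries) whose second chain is TRAC-proximal, middle or V-proximal, for each class of the main chain (x axis). V-proximal second chains averaged under 10% where the main chain was TRAC-proximal (1.96% to 18.75% per library). TRAC-proximal second chains also averaged under 10% where the main chain was V-proximal (5.0% to 21.2%). Right, mean distance in segment numbers (y axis) between the alpha chains of the same and of different receptors, with 1 line per library; the same-receptor distance is the smaller in all 8, 10.8 ± 1.02 against 15.6 ± 0.44.

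No single segment was called between second and main chains. Of the 41 segments, 23 had enough receptors to be tested, and 0 were called by edgeR at an adjusted p under 0.05, where 11.4% of the 44 TRAV and TRAJ labels tested were called. DESeq2 also called 0 of these segments. At an unadjusted p under 0.05 there were 3: TRAJ42, TRAJ21 and TRAJ39. They were 13.0% of the segments tested, below the 22.7% of all 44 labels. TRAJ42 was at 2.96% of second and 1.87% of main chains, higher in 7 of 8 libraries (log2 difference 0.56 ± 0.24 SE, edgeR adjusted p = 0.163). TRAJ21 was at a log2 difference of -0.58 ± 0.22 (edgeR adjusted p = 0.155). TRAJ39 was at 1.86% of second and 3.14% of main chains, higher in 1 of 8 libraries (-0.60 ± 0.25, edgeR adjusted p = 0.163). TRAJ31, the most used segment, was found in 146 main and 143 second chains.

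CDR3 alpha length depended on the segment. The longest CDR3s were those of TRAJ2 (15.1 ± 0.14 amino acids, SD over 8 libraries), TRAJ52 (14.8 ± 0.17) and TRAJ53 (14.7 ± 0.24), with TRAJ28 and TRAJ32 also at 14.7 and within the spread of the last. The shortest were those of TRAJ31 (12.3 ± 0.08), TRAJ33 (12.3 ± 0.11) and TRAJ43 (12.4 ± 0.08). TRAJ33 is the segment of the invariant alpha chain of mucosal-associated invariant T cells, joined to TRAV1, and 4 clonotypes had that join. The printed ends of TRAJ31, TRAJ33 and TRAJ43 are 26 bases long and those of TRAJ2, TRAJ52 and TRAJ53 35. Over the 41 segments the TRAJ-encoded end, by the RefSeq lengths, ran from 24 to 35 bases. Mean length correlated with it at r = 0.855, and with the segment's number at r = 0.187 (41 segments, a description).

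Trimming and added bases varied less than the segments. Apart from TRAJ24, a segment lost 1.32 to 5.06 bases of its end on average, and the V-encoded and added bases came to 13.0 to 15.5 (40 segments). TRAJ24 differed: 97.9% of its clonotypes reached the start of its 25 traced bases, and its other bases came to 17.7. In 99.3% of those clonotypes the next base was the same too, so the traced end, shown here in full, is shorter than what the segment contributes.
TRAJ24 (chr14:54195645-54195700): TGCCAGTTTGGGGAAACTGCAGTTT
Without TRAJ24, r between length and TRAJ-encoded bases was 0.929 over 40 segments. TRAJ47, with the most other bases of these 40 (15.5), showed the same less strongly. In it 56.8% of clonotypes reached the start of the traced end, and 88.7% of those shared the next base. The next base was also shared by 80.0% of such clonotypes in TRAJ28 and 79.1% in TRAJ22. Traced ends other than that of TRAJ24 may therefore be too short as well.

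V-proximal segments gave longer CDR3s than TRAC-proximal ones. Their means were 13.8 ± 0.08 and 13.3 ± 0.08 amino acids, and that of the middle segments was 13.2 ± 0.05. In experiment 1 the V-proximal minus TRAC-proximal difference was 0.410 in WT IgG, 0.423 in WT anti-4-1BB, 0.259 in KO IgG and 0.648 in KO anti-4-1BB. In experiment 2 it was 0.407, 0.432, 0.438 and 0.435. The difference of 0.431 ± 0.106 amino acids was positive in 8 of 8 libraries (exact two-sided sign-flip permutation test, n = 8, p = 0.00781, the smallest possible; adjusted p = 0.0130). In nucleotides it was 1.29 ± 0.32, of which 0.875 ± 0.228 were retained TRAJ bases and 0.419 ± 0.207 V-encoded or added bases. All libraries read the same segments, whose TRAJ-encoded ends averaged 30.6 bases V-proximal, 29.75 TRAC-proximal and 29.1 middle. The sign in 1 library is therefore not independent of that in another. The p does not measure the spread between segments, over which length and number correlated at r = 0.187.

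**Figure D4:**
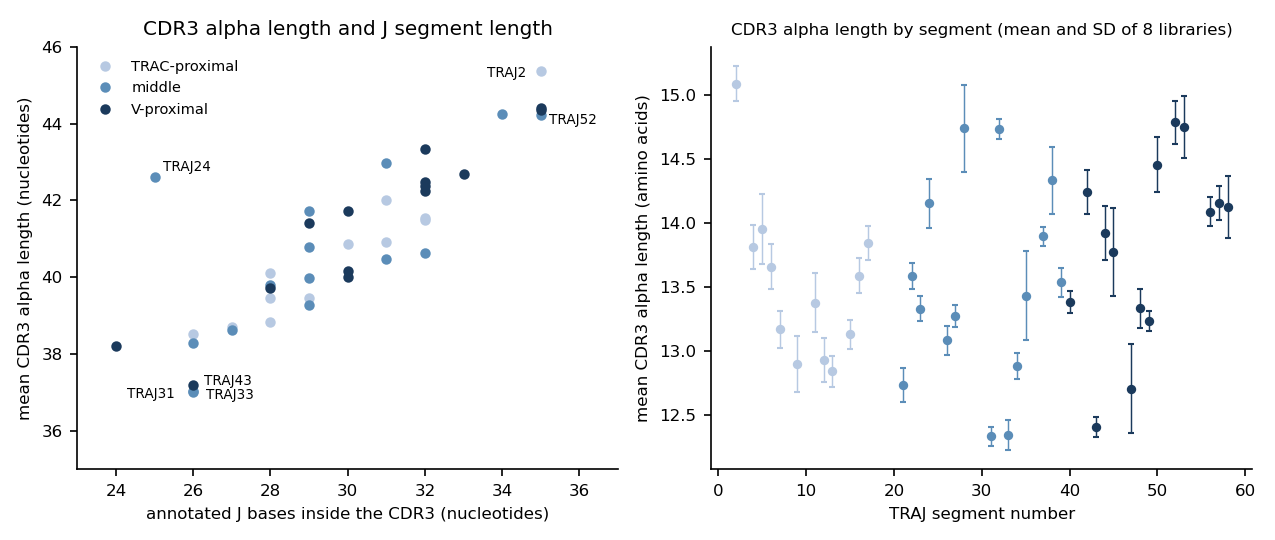
Left, mean CDR3 alpha length in nucleotides (y axis, not from 0) against the TRAJ-encoded bases of the CDR3 (x axis), with 1 point per segment coloured by its span of the row; length rises with the TRAJ-encoded end, and TRAJ24 lies above the segments of similar length. Right, mean length in amino acids (y axis; mean and SD of 8 libraries) against TRAJ number (x axis), with no steady slope (r = 0.187).

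Expanded clonotypes, those of at least 2 cells in a library, did not differ detectably from single-cell clonotypes in position along the row. Expanded minus single was -0.13 ± 0.73 in mean TRAJ number (SD, n = 8), from -1.21 to 0.676 and positive in 4 of 8 libraries (exact sign-flip permutation test, p = 0.625, adjusted p = 0.625). With expanded clonotypes taken as those of at least 3 cells it was -0.515 (exact p = 0.258), and without KO IgG replicate 1 it was 0.0204. The share of cells in expanded clonotypes was 15.4% to 50.2% for TRAC-proximal, 17.2% to 44.8% for middle and 15.8% to 43.3% for V-proximal segments. It differed far more between libraries than along the row: all 3 lowest values came from KO anti-4-1BB of experiment 1 and all 3 highest from WT anti-4-1BB of experiment 2. By its definition the share depends on the cells sampled. The first of these libraries had the fewest cells kept, 2656, and the other had 4439. The difference between libraries was not tested. V-proximal minus TRAC-proximal was -1.33 ± 5.53 percentage points and positive in 4 of 8 libraries. The extremes were both KO IgG libraries, at -9.13 in experiment 1 (31.4% TRAC-proximal and 22.3% V-proximal) and 9.11 in experiment 2 (24.0% and 33.1%). Cells of 1 clonotype share their chain, so these shares can rest on few clonotypes.

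edgeR called 0 of the 41 segments between expanded and single clonotypes, where 1.31% of the 153 V and J labels tested were called, and DESeq2 called 0. At an unadjusted p under 0.05 there were 2, TRAJ12 and TRAJ7, or 4.88% of the 41, below the 9.15% of all 153 labels. TRAJ12 had 4.33% ± 1.26 of expanded and 3.17% ± 0.64 of single clonotypes. It was higher among expanded clonotypes in 8 of 8 libraries (log2 difference 0.41 ± 0.16 SE), but missed the threshold (edgeR adjusted p = 0.280, and 0.221 to 0.575 over the alternatives). In experiment 1 its expanded and single shares were 5.08% and 3.80% in WT IgG, 4.85% and 4.04% in WT anti-4-1BB, 6.57% and 2.89% in KO IgG and 2.86% and 2.75% in KO anti-4-1BB. In experiment 2 TRAJ12 had 2.92% and 2.01%, 3.42% and 3.37%, 4.08% and 3.01%, and 4.84% and 3.45% in the same order. Between 5 and 33 expanded clonotypes stood behind each of these shares. TRAJ7 had 0.861% ± 0.618 of expanded and 1.18% ± 0.14 of single clonotypes, lower in 5 of 8 libraries (log2 difference -0.67 ± 0.31, edgeR adjusted p = 0.382).

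The position of the joins did not differ detectably between treatments or genotypes beyond the spread of the libraries. In experiment 1 the mean TRAJ number was 29.4 in WT IgG, 30.2 in WT anti-4-1BB, 30.6 in KO IgG and 31.1 in KO anti-4-1BB. In experiment 2 it was 32.1, 31.0, 31.2 and 30.8 in that order. Anti-4-1BB minus IgG was -0.07 ± 0.83 over the 4 combinations of experiment and genotype (exact permutation test, p = 1). It was 0.602 in experiment 1 and -0.738 in experiment 2. KO minus WT was 0.19 ± 1.00 (exact permutation test, p = 0.875), at 1.02 in experiment 1 and -0.634 in experiment 2. With 16 arrangements these tests cannot give a p below 0.125, and adjusted over their 6 tests every p was 1. Leaving out 1 library moved the treatment difference between -0.329 and 0.275 and the genotype difference between -0.122 and 0.585. The treatment and genotype comparisons share libraries.

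The link with TRAV position and the CDR3 length did not differ detectably either. Near minus far differed by -0.18 ± 0.90 between anti-4-1BB and IgG (exact permutation test, p = 0.75) and by -0.48 ± 1.06 between KO and WT (p = 0.375). With cells counted in place of clonotypes the treatment difference was -0.865 (exact p = 0.125, the smallest possible), and without TRAV genes that are D or N copies it was -0.915. It turned to 0.137 without either KO library of experiment 2. The KO minus WT difference turned to 0.550 with cells counted and to 1.21 without D or N copies. Mean CDR3 length differed by -0.006 ± 0.087 amino acids between treatments and by 0.008 ± 0.063 between genotypes (exact permutation tests, p = 0.875 for both). Both differences in length changed sign when 1 library was left out, from -0.0304 to 0.0354 for treatment and from -0.00589 to 0.0387 for genotype.

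**Figure D5:**
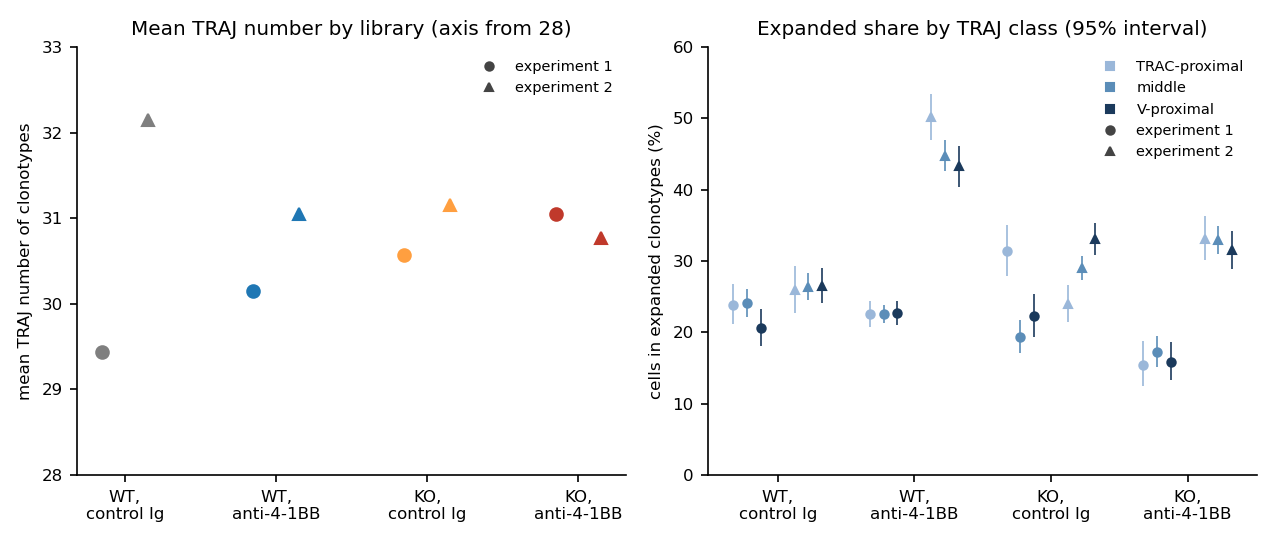
Left, mean TRAJ number of each library (y axis, not from 0) by group (x axis), with the experiments marked; WT IgG is lowest at 29.4 in experiment 1 and highest at 32.1 in experiment 2. Right, percent of cells in expanded clonotypes (y axis) by span of the row in each library, with the exact 95% interval taken on counts of cells. Cells of 1 clonotype are not independent, so these intervals are too narrow. The libraries differ more than the spans, from 15.4% to 50.2%.

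Single segments gave no call between anti-4-1BB and IgG: 0 of 41 by edgeR at an adjusted p under 0.05, where 0.654% of the 153 labels tested were called. At an unadjusted p under 0.05 edgeR had 0, against 3.27% of all labels tested. At that threshold it had 1 (TRAJ33) with experiment as a replicate block, which also called 0. DESeq2 called 0. Of the 41, 24 had a log2 difference above 0 and 17 below, and their median was 0.02 against -0.03 over all labels tested. The smallest p on the higher side was that of TRAJ33. In experiment 1 it had 2.36% of clonotypes in WT IgG, 2.87% in WT anti-4-1BB, 1.65% in KO IgG and 3.14% in KO anti-4-1BB. In experiment 2 TRAJ33 had 2.98%, 3.09%, 2.93% and 3.25%. Its log2 difference was 0.28 ± 0.16 SE, and the groups overlapped, since WT anti-4-1BB of experiment 1 lay below both IgG libraries of experiment 2. Within experiment and genotype TRAJ33 was higher under anti-4-1BB in 4 of 4 pairs, as were TRAJ28 and TRAJ42, and this agreement was not tested. If direction were random in each pair, a segment would have 4 of 4 pairs in 1 direction with a probability of 0.125. With the replicate block the log2 difference of TRAJ33 was 0.31 (edgeR adjusted p = 0.923). It was 0.14 without KO IgG replicate 1, 0.55 without KO IgG replicate 2 and 0.13 with cells counted. TRAJ47, TRAJ28 and TRAJ12 followed it. On the lower side TRAJ52 came first, with 1.56% to 1.91% under anti-4-1BB and 1.72% to 2.58% under IgG (-0.29 ± 0.16), followed by TRAJ43, TRAJ40 and TRAJ4.

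Between KO and WT edgeR also called 0 of 41 segments, where 0.654% of the 153 labels were called. At an unadjusted p under 0.05 it had 0, against 1.31% of all labels tested. At that threshold it had 3 with experiment as a replicate block (TRAJ39, TRAJ40 and TRAJ47), which also called 0. DESeq2 called 0. The segments split into 21 above and 20 below 0, with a median log2 difference of 0.00 against 0.02 over all labels tested. TRAJ39 had 2.62% ± 0.36 of clonotypes in KO and 3.25% ± 0.29 in WT libraries (SD, n = 4 each; log2 difference -0.31 ± 0.15 SE). Its KO values were 3.08% and 2.26% in experiment 1 and 2.43% and 2.71% in experiment 2, IgG first. The WT values of TRAJ39 were 3.12% and 2.91%, then 3.36% and 3.59%, so the groups overlapped by 1 KO library. Paired within experiment and treatment, TRAJ39 was lower in KO in 4 of 4 pairs, and with the replicate block its log2 difference was -0.32 (edgeR adjusted p = 0.993). TRAJ40 was also lower in 4 of 4 pairs (-0.27 with the block, edgeR adjusted p = 0.993). TRAJ5, TRAJ40 and TRAJ13 were next on that side. TRAJ47 had the smallest p on the other side, at 0.925% ± 0.311 against 0.652% ± 0.166 (0.40), before TRAJ42, TRAJ37 and TRAJ52. TRAJ47 was higher in KO in 4 of 4 pairs, at 0.47 with the block (edgeR adjusted p = 0.993). Without KO anti-4-1BB replicate 1 its log2 difference was 0.16, and without KO anti-4-1BB replicate 2 it was 0.63. Of the 41 segments, TRAJ13 and TRAJ17 were the others with 4 of 4 pairs in 1 direction, both lower in KO. With 16 arrangements of the pairs an exact permutation test cannot give a p below 0.125, and this agreement was not tested. A segment whose direction were random in each pair would agree in 4 of 4 pairs with a probability of 0.125.

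No segment was called for a difference of the treatment effect between genotypes. edgeR called 0 of 41, where 0.0% of the 153 labels were called, and DESeq2 called 0. Of the 41, 14 were above 0 and 27 below, with a median of -0.07 against -0.06 over all labels. Those above 0 were 1 of the 12 TRAC-proximal, 8 of the 15 middle and 5 of the 14 V-proximal segments, a split that was not tested. The share with an unadjusted p under 0.05 was 2.44% of the 41, against 2.61% of all labels tested. TRAJ5 alone had an unadjusted p under 0.05 (log2 difference of effects -1.46 ± 0.63 SE, edgeR adjusted p = 0.970), also with the replicate block (-1.36, edgeR adjusted p = 0.938). It was -0.61 without WT anti-4-1BB replicate 1 and -2.00 without KO IgG replicate 2. Its unadjusted p was no longer under 0.05 without any 1 of WT anti-4-1BB replicate 1, KO IgG replicate 1, KO anti-4-1BB replicate 1 and WT IgG replicate 2, nor with cells counted or by DESeq2. In experiment 1 TRAJ5 had 0.555% in WT IgG, 0.791% in WT anti-4-1BB, 0.694% in KO IgG and 0.209% in KO anti-4-1BB, the last from 5 clonotypes. In experiment 2 it had 0.328%, 0.356%, 0.356% and 0.283%, all from 10 to 17 clonotypes, and the groups lay closer together. The next smallest p-values were those of TRAJ53, TRAJ16 and TRAJ52 in the same direction and of TRAJ24, TRAJ35, TRAJ26 and TRAJ34 in the other.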

How the data were processed

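The authors deposited 1 table of assembled TCR contigs per library, with the count of reads and of UMIs per contig, per the file headers. Per the submitters' processing notes, Cell Ranger 7.1.0, bcl2fastq 2.20.0 and Seurat were used with GRCm38; the V(D)J reference is not given in the sources used here. All per-sample columns were mapped to samples. Segment positions came from a RefSeq table of GRCm38.p6, matched by symbol.

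Clonotypes were counted per segment from the deposited tables. Counts were compared with the quasi-likelihood test of edgeR 4.0.16 in R 4.3.3, with 1 fit for each of TRAV, TRAJ, TRBV and TRBJ and Benjamini-Hochberg adjustment over all segments with at least 10 clonotypes in 2 or more columns. DESeq2 1.42.0 was an alternative. The main fits between treatments and genotypes had no term for experiment, so their SE and p ignore the pairing of libraries by experiment. Fits with experiment as a replicate block were run as an alternative. Measures per library were compared by exact permutation tests in Python 3.11.15 (numpy 2.4.6, pandas 2.3.3, scipy 1.17.1), and figures were drawn with matplotlib 3.10.9. The scripts were tested on simulated data. Other settings tried were TMM factors, no filter, cells in place of clonotypes, chains with at least 3 UMIs, kb in place of number, other TRAV spans, and leaving out each library.

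The labels mark the experiment as a batch, which pairs the libraries. Deviations of libraries of the same experiment from their group means correlated at -0.0125 to 0.453 (median 0.156, 6 pairs, 41 segments). Doublets were not called beyond the rule of exactly 1 beta chain.

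Named segments are the 6 most and 6 least used, the 4 with the smallest p in each direction of each comparison, the 3 with the longest and shortest CDR3, and TRAJ33; named families are the 3 highest and lowest. Other TRAV and TRAJ genes named were chosen after their values were seen, to show the pattern along the locus. The segments, lists and comparisons were chosen with earlier results of these data known.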

Additional observations from a re-analysis of the deposited data

Results flagged for a closer look

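In 3 of the comparisons the experiments went in opposite directions in every library pair, and the difference between experiments was not tested. Anti-4-1BB minus IgG in mean TRAJ number was 0.602 in experiment 1 (0.488 in KO and 0.716 in WT) and -0.738 in experiment 2 (-0.379 and -1.10). KO minus WT in mean TRAJ number was 1.02 in experiment 1 (1.13 under IgG and 0.901 under anti-4-1BB) and -0.634 in experiment 2 (-0.992 and -0.275). Anti-4-1BB minus IgG in mean CDR3 alpha length was 0.0532 amino acids in experiment 1 (0.0386 in KO and 0.0679 in WT) and -0.0648 in experiment 2 (-0.130 in KO and -0.000118 in WT). The WT pair of experiment 2 was thus close to 0, and the mean of that experiment came from the KO pair. The pairs share libraries: WT IgG, with the lowest mean TRAJ number of experiment 1 and the highest of experiment 2, enters both of the comparisons of mean number. The experiment also differed in the kind of Cre and in tamoxifen, which cannot be told apart.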

How the results depend on the processing

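No segment was called in any of the 5 comparisons under any alternative run, including the fits with experiment as a replicate block (0 calls; at an unadjusted p under 0.05 it had TRAJ33 for treatment, TRAJ39, TRAJ40 and TRAJ47 for genotype and TRAJ5 for the difference of effects) and those leaving out 1 library (0 to 0 calls). The 541 alternative fold changes of the 40 named pairs of segment and comparison had a smallest adjusted p of 0.0516 (edgeR, TRAJ21, second against main chain, without WT anti-4-1BB replicate 2). With no replicate block the p of the 6 group differences, in the order of the report (number, CDR3 length, near minus far; treatment, then genotype), was 0.943, 0.743, 0.943, 0.914, 0.8 and 0.371 (exact permutation tests). Near minus far kept its direction at 5.08 (2 spans), 12.9 (no D or N copies) and 8.03 (without TRAV17, TRAV18, TRAV19 and TRAV21, chosen after seeing the data), and leaving out 1 library gave 9.06 to 9.37. The distance of both chains ranged from -4.96 to -4.64, the CDR3 length difference from 0.400 to 0.456 and second minus main from 0.0131 to 0.480 without 1 library. The difference in distance between the experiments was -1.74, and -1.04 where the main chain had at least 2 times the UMIs of the second and -1.32 with cells counted. Sign changes occurred in differences that no test called, and their cause was not tested. Expanded minus single ranged from -0.249 to 0.0204 without 1 library, the last without KO IgG replicate 1. The treatment difference in mean number ranged from -0.329 to 0.275 (0.0359 without either KO library of experiment 2), and the genotype difference from -0.122 to 0.585 (-0.0458 without either anti-4-1BB library of experiment 1). The treatment difference in CDR3 length ranged from -0.0304 to 0.0354. The genotype difference ranged from -0.00589 to 0.0387 (-0.00444 without either IgG library of experiment 2) and was -0.00537 with cells counted. Near minus far between treatments ranged from -0.527 to 0.137, and between genotypes from -0.976 to -0.168. That genotype difference was 0.550 with cells counted and 1.21 with no D or N copies. For treatment, TRAJ12 ranged from -0.00258 (without WT IgG replicate 2) to 0.444 and TRAJ4 from -0.463 to 0.105 (log2), with 0.0106 without KO IgG replicate 1, 0.105 without WT IgG replicate 1 and 0.21 with cells counted. Depth limits rare segments such as TRAJ5, with 5 to 60 clonotypes per library.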

Other observations

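Cells left out by the rule on chains carried TRAJ segments along the row too, and their values are given for comparison, with no test. The alpha chains of cells with no beta chain and 1 alpha chain (3111 distinct chains) had a mean TRAJ number of 30.1 ± 1.26 (SD, n = 8 libraries) and a near minus far difference of 9.70 ± 1.27. Those of cells with 2 beta chains and 1 alpha chain (2899) had 30.1 ± 1.37 and 8.97 ± 1.45. Cells with 1 beta and 1 alpha chain had 30.9 ± 0.75 and 9.10 ± 0.73.

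In cells that had 2 beta as well as 2 alpha chains, same minus different distance was -1.61 ± 1.72 (600 pairs, from -3.90 to 0.952 per library) and Pearson r over all pairs was 0.110. In cells with 1 beta chain, counted in the same way, it was -4.85 ± 1.03 (1918 pairs) with r = 0.469. The difference between the kinds of cell was not tested.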
